A study of Mus musculus with 16 samples.

Results

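The genes described here are the 9 genes Otx1, Otx2, Gbx2, En1, En2, Fgf8, Fgf17, Hes3 and Cnpy1, which mark the midbrain-hindbrain boundary and the territories on either side of it. They were chosen by name, and all 9 were found among the 24982 genes of the count table. They were read in 16 primary rhabdoid tumors, each from a different mouse. All the mice carried the genotype Smarcb1flox/flox;R26-CreERT2 on a mixed 129/SV×C57BL/6 background, in which tamoxifen given during gestation switches on a Cre recombinase in unrestricted cell types and removes Smarcb1, a subunit of the SWI/SNF chromatin remodeling complex. No normal brain tissue was analysed here. The 5 intra-CNS tumors lay within the brain parenchyma and are the Shh tumors of the study, and all were induced at embryonic day 6 (E6) and taken at 30 to 180 days of age. The 11 extra-CNS tumors are its Myc tumors. Of these, 6 were intracranial extra-CNS (1 each with tamoxifen at E6 and at E7, 4 with tamoxifen at E8, taken at 52 to 170 days) and 5 were extracranial, from the back, jaw, nose or mouth (1 induced at E6 and 4 at E8, taken at 80 to 210 days). The labels do not say which brain region an intra-CNS tumor came from.

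The midbrain-hindbrain boundary, or isthmus, is a signaling center of the embryonic neural tube that patterns the midbrain in front of it and the cerebellum behind it. Otx2 is the homeobox gene of the forebrain and midbrain and Gbx2 that of the anterior hindbrain. They repress each other, and the boundary forms where their domains meet. There the secreted factors Fgf8 and Fgf17 are made, and the homeobox genes En1 and En2 are expressed across the adjoining midbrain and hindbrain. Hes3, a Hes family repressor that holds isthmic cells undifferentiated, and Cnpy1, a canopy family gene tied to FGF signaling at the boundary, belong to the same domain. The study asked which embryonic brain territory the tumors resemble. For its mouse Shh tumors it reported a mostly ventral sub-ventricular site and proposed ganglionic eminence progenitors as candidate cells of origin. Transcription factors of human SHH tumors of the cerebellar anterior lobe, which it relates to the boundary, were reported as much less clearly raised in mouse. The question here is which Shh tumors express the boundary genes together and with which of Otx2 and Gbx2.

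In the mm10 assembly (annotation of GENCODE M21), 2 of the genes are neighbors. En2 (ENSMUSG00000039095.8) lies on the forward strand at chr5:28165694-28172166 and Cnpy1 (ENSMUSG00000044681.19) on the reverse strand at chr5:28200819-28245806, with 28.7 kb and 0 annotated genes between them. Otx2 (ENSMUSG00000021848.16, chr14:48657677-48673819, reverse strand) overlaps the antisense noncoding gene Otx2os1, and the libraries were stranded. Gbx2 (ENSMUSG00000034486.8) lies at chr1:89927956-89931179 on the reverse strand. Windows around annotated starts of Otx2 and Gbx2, the pair that sets the boundary, are shown to compare their homeodomain core motifs (RefSeq, GRCm38.p6). Capitals mark TAATTA, the core bound by many homeodomain proteins, and TAATCC or its reverse complement GGATTA, the core bound by Otx proteins, on either strand.
Otx2 chr14:48665060-48665359 (reverse strand): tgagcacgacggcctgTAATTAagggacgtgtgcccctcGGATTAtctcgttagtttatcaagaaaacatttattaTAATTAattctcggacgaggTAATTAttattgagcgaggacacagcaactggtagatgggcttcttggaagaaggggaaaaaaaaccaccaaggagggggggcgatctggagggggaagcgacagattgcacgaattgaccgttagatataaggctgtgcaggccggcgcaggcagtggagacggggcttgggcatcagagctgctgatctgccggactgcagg
Gbx2 chr1:89931127-89931426 (reverse strand): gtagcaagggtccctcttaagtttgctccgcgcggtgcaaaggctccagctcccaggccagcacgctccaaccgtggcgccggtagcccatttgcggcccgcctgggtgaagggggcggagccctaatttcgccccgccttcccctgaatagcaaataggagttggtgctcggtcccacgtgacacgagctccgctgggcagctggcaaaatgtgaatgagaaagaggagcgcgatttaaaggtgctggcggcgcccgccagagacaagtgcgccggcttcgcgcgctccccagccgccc
Otx2 has 4 such windows and Gbx2 has 1, and the Otx2 window shown is the one with the most matches. It held 3 TAATTA and 1 GGATTA. Another Otx2 window held 1 TAATTA, and the other 2 Otx2 windows and the Gbx2 window held 0 of either motif. Of 32851 windows of 300 bases, 5.29% held TAATTA and 7.06% held TAATCC on either strand. Windows were found for 4 of the 9 genes, 8 windows in all, and those of En1 and Cnpy1 also held 0. These matches describe letters only.

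The libraries held between 17889968 and 110177889 counts. A floor of 3 counts corresponds to 0.0272 to 0.168 CPM. Smarcb1 itself was read at 58.1 TPM in the intra-CNS tumor 29048 and 43.7 TPM in the intracranial extra-CNS tumor R26P115, and at 3.99 to 26.1 TPM in the other 14 tumors. TPM, a share of transcripts corrected for gene length, is used below for levels. Markers of other cell types stood out in some tumors. The summed level of 6 choroid plexus epithelium markers was 204994 TPM in the intracranial extra-CNS tumor R26P115 and 4647 TPM in the intra-CNS tumor 29048, against 0.158 to 9.23 TPM in the other 14, so the tumors with the most Smarcb1 were also those with the highest sums of these markers. The 6 oligodendrocyte markers summed to 6295 TPM in 29048 and to 42.2 to 154 TPM elsewhere. The 5 mature neuron markers summed to 3083 TPM in 29048, 948 in 38594A, 363 in 29050A, 75.5 in R26P98 and 148 in R26P87, and to 9.24 to 307 TPM in the extra-CNS tumors. The 6 cerebellar neuron markers summed to 136, 128, 142, 28.6 and 9.64 TPM in the same intra-CNS tumors and to 0.483 to 353 TPM in the extra-CNS tumors, the highest sum being that of 29941C, where Calb1 made up 350 TPM. Of these 6, Gabra6, Cbln3, Pcp2 and Car8 were highest in 29050A (14.3 to 30.0 TPM), Neurod1 in 38594A (37.8 TPM) and Calb1 in 29941C. In bulk tumors, fewer cells of a type and less RNA per cell cannot be told apart.

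All 5 intra-CNS tumors had most of the boundary genes at or above 1 TPM. This is a low level, since the median of the genes above 0 TPM was 14.49 to 18.73 TPM in these tumors. The share of all genes at or above 1 TPM was not counted, so the counts of members have no background to compare with. Gbx2, Fgf8 and Hes3 ranked lowest by median among the genes above 0 TPM of the same tumor. Gbx2 was above 8.62% to 39.9% of those genes. Hes3 was above 22.6% to 37.0% of them, but 90.0% in R26P87. Fgf8 was above 16.9% to 27.1% in 29048, 38594A and 29050A, 65.1% in R26P98 and 87.7% in R26P87. Tumors 29048 and 38594A were the ones with all 9 genes at or above 1 TPM. R26P98 and R26P87 had 8 genes, lacking Gbx2, and 29050A had 7, lacking Gbx2 and Fgf8. Of the 6 boundary genes without Otx1, Otx2 and Gbx2, the intra-CNS tumors had 5 or 6 at this level, and the extra-CNS tumors had 1 to 4. The extra-CNS tumor with most members at or above 1 TPM was R26P115, with 6 of 9, followed by R26P170 and 43992A with 5 each. These counts depend on the level chosen. At 0.5 TPM, R26P87 also had all 9 genes and 29050A had 8. At 2 TPM, 38594A alone had all 9, 29048 had 8, and the count for R26P115 was 3.

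**Figure D1:**
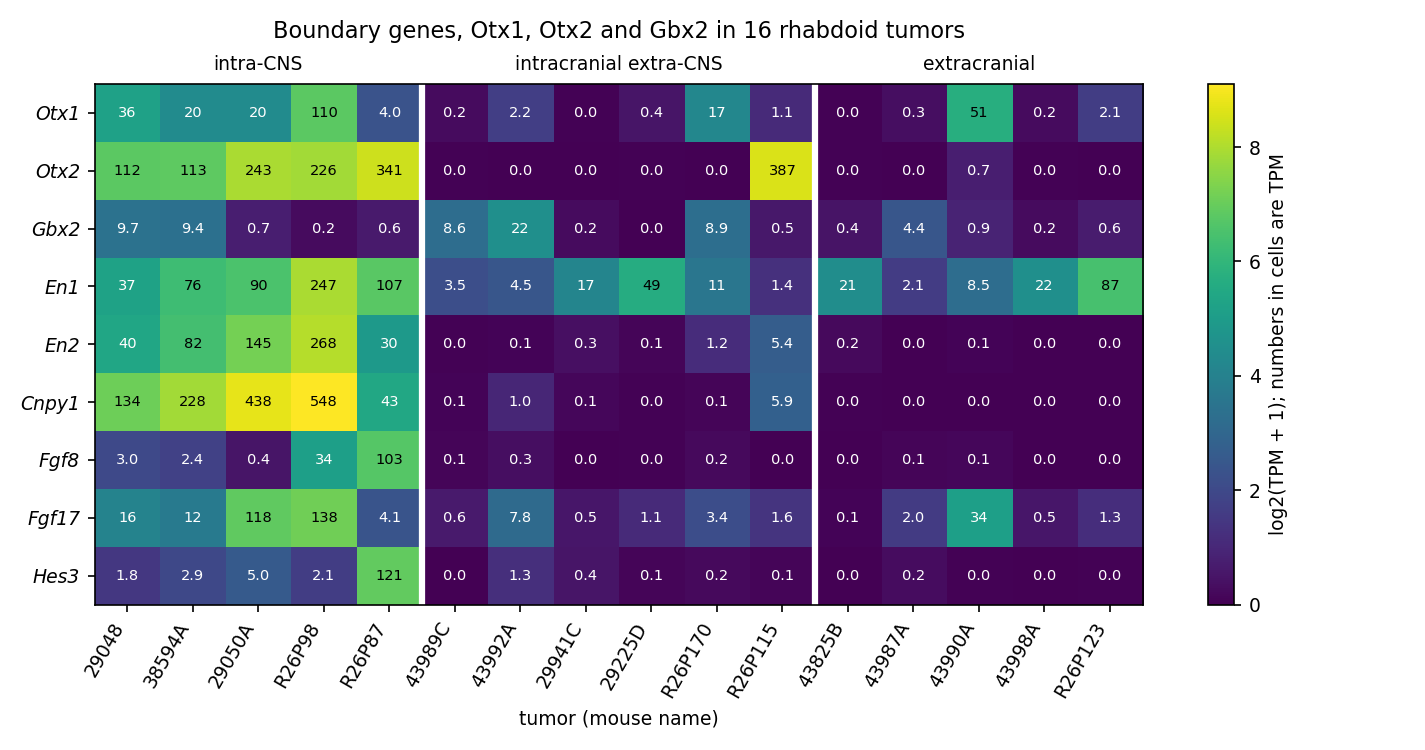
Level of each of the 9 genes (rows) in each of the 16 tumors (columns, by site), with color for log2(TPM + 1) and the TPM value printed in each cell. Otx2, En1, En2 and Cnpy1 are above 29 TPM in every intra-CNS tumor, while among extra-CNS tumors Otx2 is above that level in R26P115 and En1 in R26P123 and 29225D.

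Otx2 was high in all intra-CNS tumors, with the smallest spread of the 9 genes among them (SD of log2(TPM + 1), 0.71). Its level was 112 TPM in 29048, 113 in 38594A, 243 in 29050A, 226 in R26P98 and 341 in R26P87, a mean of 207 ± 96.8 TPM (SD, n = 5). Each of these was above the level of 89.7% or more of the genes read in that tumor. Outside the brain parenchyma, Otx2 had 0 to 26 counts in 10 of 11 tumors, the 26 counts (0.704 TPM) being in the nose tumor 43990A. The exception was R26P115 with 387 TPM, the highest value of the 16 tumors. The antisense gene Otx2os1 followed the same division, with 6.97 to 17.4 TPM in the intra-CNS tumors, 62.1 TPM in R26P115 and 0 counts in the other 10. Otx2 is also a gene of choroid plexus epithelium, and R26P115 is the tumor with 199516 TPM of Ttr, the transthyretin gene. The part of choroid plexus RNA in this Otx2 value was not tested.

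Otx1, the paralog of Otx2 in the forebrain and midbrain, varied more. Its level was 36.3 TPM in 29048, 20.1 in 38594A, 20.1 in 29050A, 110 in R26P98 and 4.03 in R26P87. R26P87 thus combined the highest Otx2 with the lowest Otx1 of the intra-CNS tumors, at a ratio of 84.4 against 2.06 to 12.1 in the others. In the intracranial extra-CNS tumors Otx1 ranged from 0.0441 to 17.4 TPM, highest in R26P170, and in the extracranial tumors from 0.0371 to 50.6 TPM, highest in the nose tumor 43990A. These 2 extra-CNS tumors overlapped the intra-CNS range. They held no Otx2 beyond 0.704 TPM, so Otx1 without Otx2 occurred outside the brain parenchyma.

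Gbx2 split the intra-CNS tumors. Its level was 9.67 TPM in 29048 and 9.36 TPM in 38594A, but 0.679 in 29050A, 0.208 in R26P98 and 0.573 in R26P87. The ratio of Otx2 to Gbx2 was accordingly 11.5 and 12.0 in the former pair and 358, 1083 and 595 in the latter tumors. Those with Gbx2 were also the pair with the lowest Otx2 and the youngest at sampling, 45 and 30 days against 87 to 180. They were also the pair with the highest sums of mature neuron markers, 3083 and 948 TPM against 75.5 to 363 TPM, and the part of neuronal RNA in their Gbx2 values was not tested. With 5 tumors this pattern has no replicate check.

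Gbx2 was not confined to tumors with Otx2. It was at 8.56 TPM in 43989C, 22.4 in 43992A, 0.205 in 29941C, 0.0172 in 29225D, 8.88 in R26P170 and 0.514 in R26P115 among the intracranial extra-CNS tumors. Among the extracranial tumors it was at 0.395 TPM in 43825B, 4.38 in 43987A, 0.892 in 43990A, 0.209 in 43998A and 0.635 in R26P123. The highest Gbx2 value thus belonged to an extra-CNS tumor with 0 counts of Otx2, and the intra-CNS range lay within the extra-CNS range. In 43989C and R26P170 the pituitary hormone gene Gh was at 175 and 160 TPM, against 4.10 TPM or less in the other tumors, and the part of pituitary RNA in their Gbx2 values was not tested. Mean Gbx2 was 4.10 ± 4.95 TPM (SD, n = 5) in the intra-CNS and 4.28 ± 6.88 TPM (SD, n = 11) in the extra-CNS tumors, a difference within the spread between tumors.

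En2, the engrailed gene of the midbrain and cerebellum, was at 40.4 TPM in 29048, 81.9 in 38594A, 145 in 29050A, 268 in R26P98 and 29.7 in R26P87. Its range in the 11 extra-CNS tumors was 0 to 5.37 TPM with a median of 0.0642, and the highest was again R26P115. The groups did not overlap. R26P98 and R26P87, the intra-CNS tumors with the highest and the lowest En2, had the lowest sums of the 6 cerebellar neuron markers among the intra-CNS tumors (28.6 and 9.64 TPM, with Gabra6 and Pcp2 at 0 and the other 4 markers above 0). The part of cerebellar RNA in the En2 values was not tested.

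Cnpy1 had the highest peak level of the 9 genes. It was at 134 TPM in 29048, 228 in 38594A, 438 in 29050A, 548 in R26P98 and 43.2 in R26P87, the same order of tumors as for En2, its neighbor on chromosome 5. The ratio of Cnpy1 to En2 stayed between 1.45 and 3.31 in these tumors while each gene varied 9.05-fold (En2) or 12.7-fold (Cnpy1). In the extra-CNS tumors Cnpy1 ranged from 0 to 5.85 TPM, highest in R26P115, where the ratio to En2 was 1.09. Tumor R26P170 had En2 at 1.20 TPM with Cnpy1 at 0.103 TPM, so the pair did not always go together at low levels. Cnpy2, Cnpy3 and Cnpy4, the other canopy family genes, were at 28.2 to 251 TPM in every tumor. None of the 5 paralogs read (these with Crx and Gbx1) was called, Cnpy4 having a log2 fold change of -0.75 (edgeR, adjusted p = 0.0212).

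En1 was the member at or above 1 TPM in all 16 tumors. Its level was 36.9 TPM in 29048, 75.7 in 38594A, 90.4 in 29050A, 247 in R26P98 and 107 in R26P87. Intracranial extra-CNS tumors had 1.43 to 48.5 TPM with a median of 7.66 and extracranial tumors 2.05 to 86.8 TPM with a median of 21.0. The jaw tumor R26P123 and the intracranial tumor 29225D reached the intra-CNS range, at 86.8 and 48.5 TPM. Both had En2 at or under 0.082 TPM. In embryos En1 is also a gene of ventral limb ectoderm and of cranial dermis and bone precursors.

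**Figure D2:**
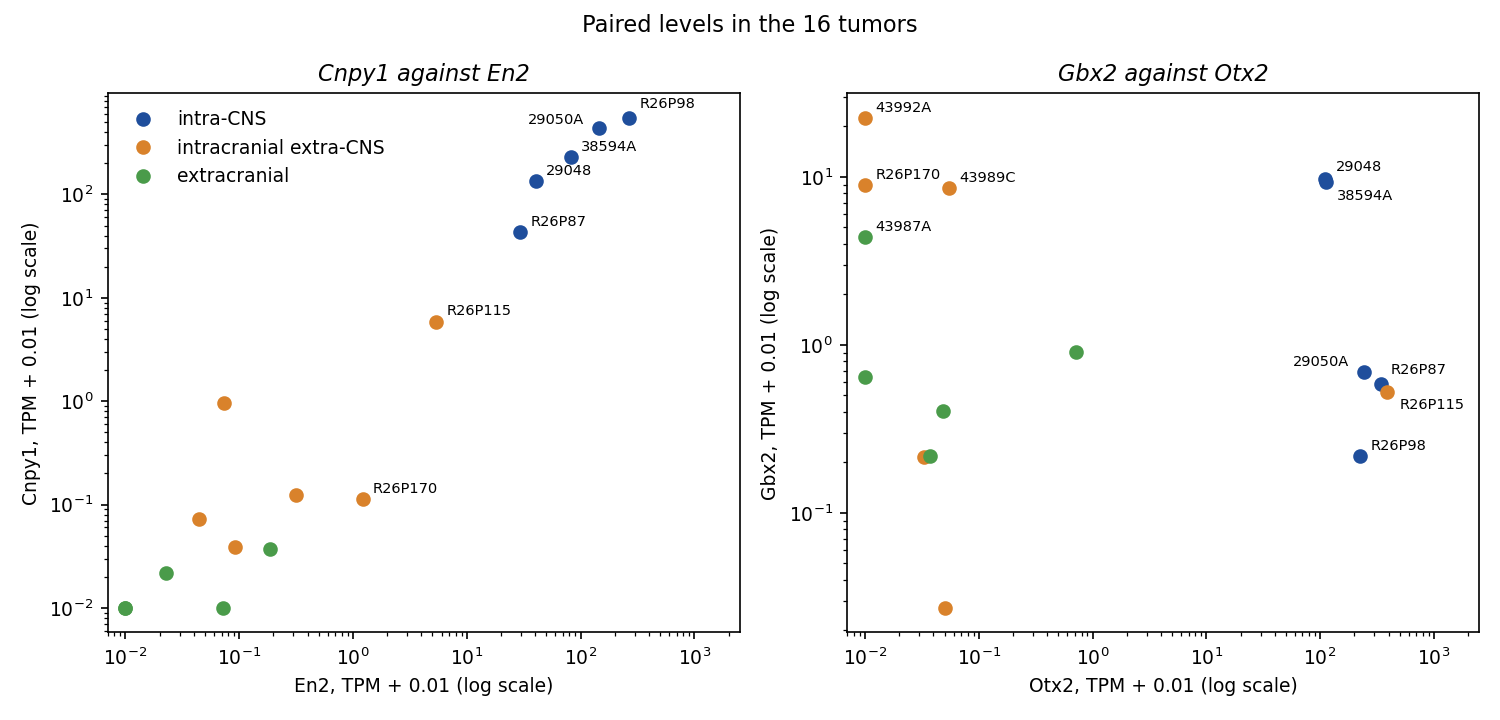
Level of Cnpy1 against En2 (left) and of Gbx2 against Otx2 (right) in each tumor, as TPM + 0.01 on log axes, with one point for each tumor colored by site and names for tumors at or above 1 TPM in either gene. On the left the intra-CNS tumors stand apart with a Cnpy1 to En2 ratio of 1.45 to 3.31, and on the right 29048 and 38594A alone hold Otx2 above 100 TPM with Gbx2 above 9 TPM.

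Of the secreted factors, Fgf8 was the more uneven. Its level was 3.03 TPM in 29048, 2.38 in 38594A, 0.414 in 29050A (14 counts), 34.2 in R26P98 and 103 in R26P87. The 11 extra-CNS tumors had 0 to 3 counts each, 14 counts in all, against 1740 counts in the intra-CNS tumors. Per total count this was a ratio of 299 with an exact 95% interval of 178 to 548, which covers counting error only and is set mostly by R26P87. The Fgf8 range of the intra-CNS tumors, 250-fold, was the widest of the 9 genes. Its SD on the log2(TPM + 1) scale, 2.59, exceeded that of 99.6% of 15812 genes with a mean of at least 1 TPM.

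Fgf17, a close relative of Fgf8, was at 16.0 TPM in 29048, 12.0 in 38594A, 118 in 29050A, 138 in R26P98 and 4.13 in R26P87. It did not track Fgf8. The ratio of Fgf17 to Fgf8 was 285 in 29050A, 5.28 in 29048, 5.05 in 38594A, 4.03 in R26P98 and 0.0399 in R26P87. In the extra-CNS tumors Fgf17 ranged from 0.0621 to 34.2 TPM with a median of 1.26, and 43990A, the tumor that also had Otx1, and 43992A were within the intra-CNS range at 34.2 and 7.85 TPM.

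Hes3 was at 1.76 TPM in 29048, 2.91 in 38594A, 5.03 in 29050A, 2.12 in R26P98 and 121 in R26P87. The value of R26P87 was 24 times the next one. In the extra-CNS tumors Hes3 ranged from 0 to 1.31 TPM, highest in 43992A, so TPM values of the groups did not overlap, while normalized counts did.

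**Figure D3:**
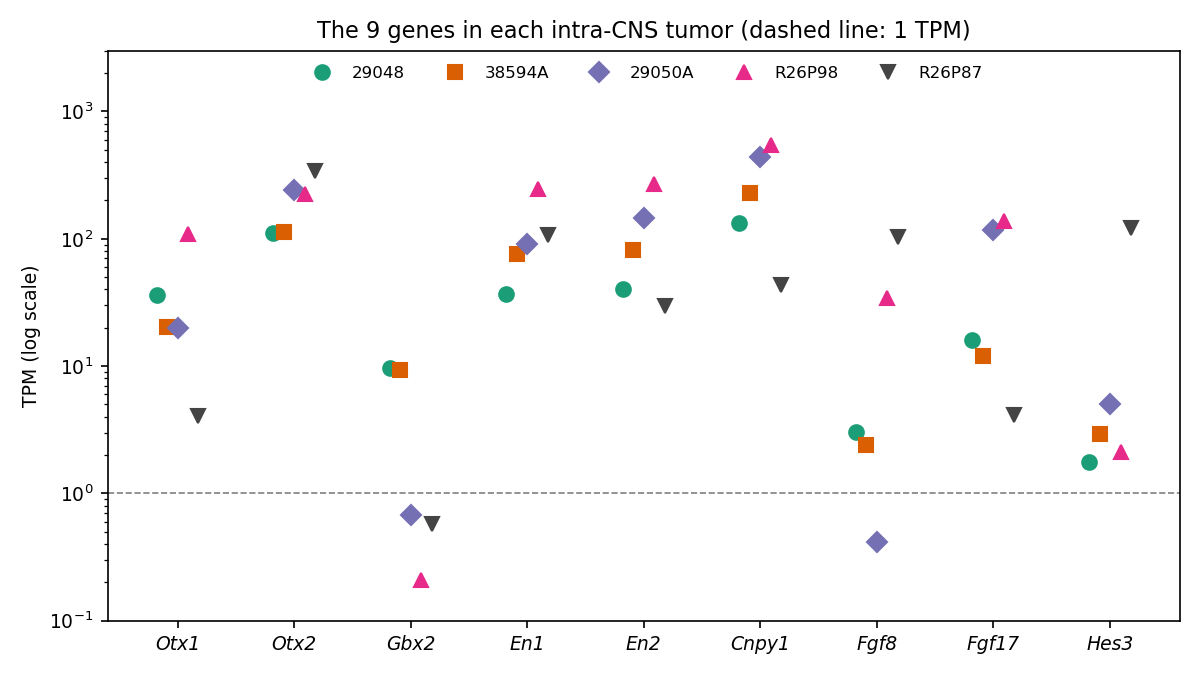
TPM of each of the 9 genes on a log axis, with one symbol for each intra-CNS tumor and a dashed line at 1 TPM. R26P87 is lowest for Otx1, En2, Cnpy1 and Fgf17 and highest for Otx2, Fgf8 and Hes3, while R26P98 is highest for Otx1, En1, En2, Cnpy1 and Fgf17.

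Set side by side, the intra-CNS tumors had different boundary profiles. R26P98 was highest for Otx1, En1, En2, Cnpy1 and Fgf17 and second for Fgf8, with Gbx2 at 0.208 TPM. R26P87 was highest for Otx2, Fgf8 and Hes3 and lowest for Otx1, En2, Cnpy1 and Fgf17. 29050A had high En2, Cnpy1 and Fgf17 with little Fgf8. The tumors 29048 and 38594A shared the presence of Gbx2, the lowest Otx2 and intermediate Fgf17. Each profile rests on 1 tumor or 2 tumors, so that differences between them are descriptions.

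For the comparison of the 5 intra-CNS with the 11 extra-CNS tumors, counts were tested with edgeR. Calls required an adjusted p below 0.05 together with a log2 fold change beyond 1 in either direction. En2, Cnpy1, Fgf8, Fgf17 and Hes3 were higher in the intra-CNS tumors, 5 of 9 members. Over the 21854 genes tested, 12.9% were called as higher and 13.1% as lower, and 0 of 9 members were lower. The median log2 fold change of the members was 3.10, beside -0.15 over all genes tested. The log2 fold change was 6.77 ± 1.34 (SE) for En2 (edgeR, adjusted p = 0.00110) and 8.08 ± 1.52 for Cnpy1 (edgeR, adjusted p = 0.00078). It was 8.09 ± 1.16 for Fgf8 (edgeR, adjusted p = 9.86e-05), a fitted value on very few extra-CNS counts. Hes3 followed with 6.32 ± 1.24 (edgeR, adjusted p = 0.00107), which fell to 3.18 ± 1.03 without R26P87 (edgeR, adjusted p = 0.0311), still called. Fgf17 was at 3.10 ± 1.08 (edgeR, adjusted p = 0.0356). In normalized counts the groups did not overlap for En2, Fgf8 and Cnpy1, and 5.43% of all genes had every intra-CNS tumor above every extra-CNS tumor.

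The remaining 4 members were not called. Otx2 had a log2 fold change of 1.82 ± 2.06 (edgeR, adjusted p = 0.503), Otx1 of 2.02 ± 1.31 (adjusted p = 0.239), En1 of 1.97 ± 0.74 (adjusted p = 0.0509) and Gbx2 of -0.65 ± 1.31 (adjusted p = 0.721). For Otx2 a single tumor decided this. Without R26P115 its log2 fold change was 10.73 ± 0.99 (edgeR, adjusted p = 3.20e-06), 7 of 9 members were called (Otx2 and En1 added), and 16.4% of all genes were called as higher. Without 43990A, Otx1 was called too, at 3.47 ± 1.18 (edgeR, adjusted p = 0.0329, with 13.5% of all genes higher). With limma on log2(TPM + 1), 8 of 9 members were higher, all but Gbx2, beside 18.7% of all genes. En1 passed the threshold without any one of 29048, 29225D, R26P123 and R26P115, with adjusted p between 0.00933 and 0.0482 in edgeR. Fgf17 lost its call without any one of 7 tumors (29050A, R26P98, 43989C, 29225D, R26P170, 43987A, R26P123), where adjusted p reached 0.114 in edgeR. Its log2 fold change was 2.48 to 4.38 with single tumors left out.

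**Figure D4:**
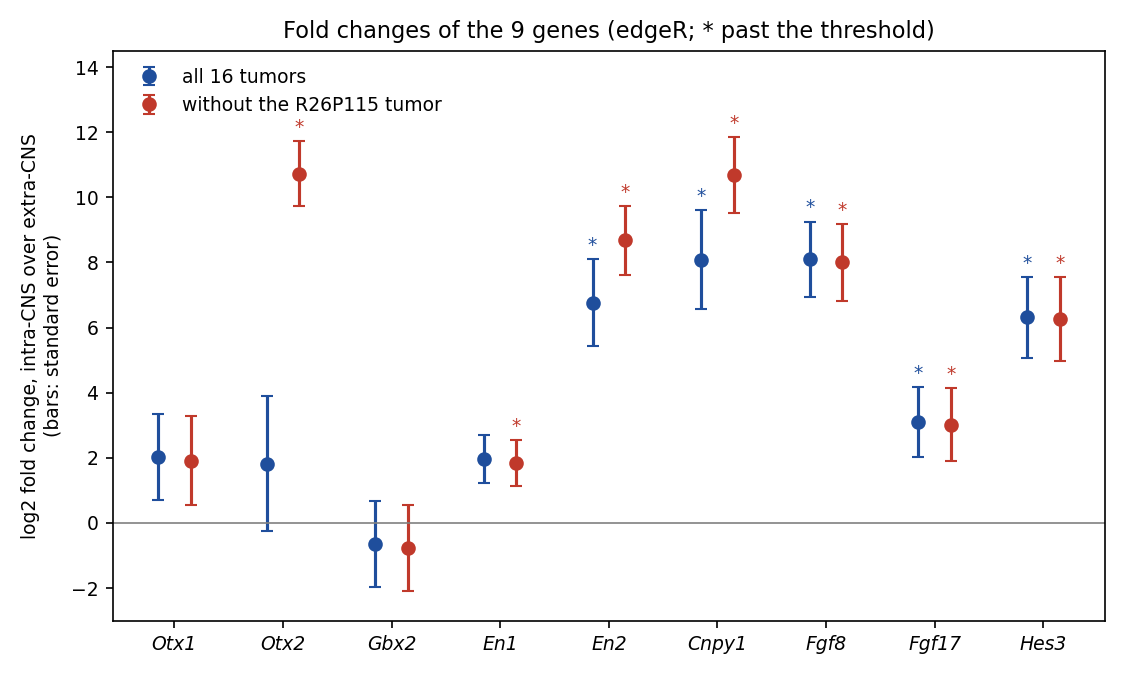
Log2 fold change of each gene between 5 intra-CNS tumors and the extra-CNS tumors, with its standard error, fitted over all 16 tumors (blue) and without the R26P115 tumor (red), where a star marks genes past the threshold. Otx2 moves from 1.82 to 10.73 when this tumor is left out, and En2 and Cnpy1 are called in both fits.

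Tumors 29048 and R26P115 had the highest choroid plexus sums and 29050A the highest Gabra6 and Pcp2. Leaving out these 3 tumors moved En2 from 6.77 to 8.84 and Cnpy1 from 8.08 to 10.65 on the log2 scale. Fgf8 moved from 8.09 to 8.69 and Hes3 from 6.32 to 6.92. All of these were called, beside 11.9% of all genes as higher. Otx2 was called too, at 10.84, while Fgf17 was at 2.84 (edgeR, adjusted p = 0.124). That set of 3 tumors was chosen after seeing the data and does not hold every tumor with markers of other cells, such as 38594A, 29941C, 43989C and R26P170. Because all intra-CNS tumors were induced at E6 and 9 of 11 extra-CNS tumors later, the day of induction is largely tied to the group. Among tumors induced at E6, 5 against 2, members called were Otx2 (log2 fold change 12.79), En2 (6.79) and Cnpy1 (11.40), beside 6.29% of all genes as higher. Fgf8 and Hes3 were at 7.60 and 7.56 there, with adjusted p of 0.115 and 0.116 in edgeR.

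The 9 genes were also compared between the 6 intracranial extra-CNS and the 5 extracranial tumors, to ask whether sites outside the brain parenchyma differ. Of 9 members, 0 were called by edgeR, with 3 at an unadjusted p under 0.05, and 1 gene of the 21261 tested was called (0.00470%). The share of all genes at that unadjusted level was not counted. The largest differences were those of Otx2, at 8.94 ± 3.44 (edgeR, adjusted p = 0.370), Cnpy1, at 7.18 ± 1.91 (adjusted p = 0.345), and En2, at 4.72 ± 1.73 (adjusted p = 0.356), each higher in the intracranial tumors. These are fitted values on few counts, since the extracranial tumors had 0 or 1 count of Cnpy1 and 0 to 6 counts of En2. Without R26P115 the Otx2 value was -2.55. With single tumors left out, En2 ranged from 2.81 to 6.08 and Cnpy1 from 4.85 to 7.96. R26P115 held 210 counts of En2 and 247 of Cnpy1, against at most 54 and 32 in the other intracranial extra-CNS tumors. DESeq2 called En2 and Cnpy1 in this comparison, both higher in the intracranial tumors, with 1.60% of its genes. The nose tumor 43990A, extracranial in the labels, is listed as intracranial by the study's own table of tumors. Without it the values of Otx1 and Fgf17 changed sign, from -1.50 to 2.47 and from -1.49 to 1.41.

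**Figure D5:**
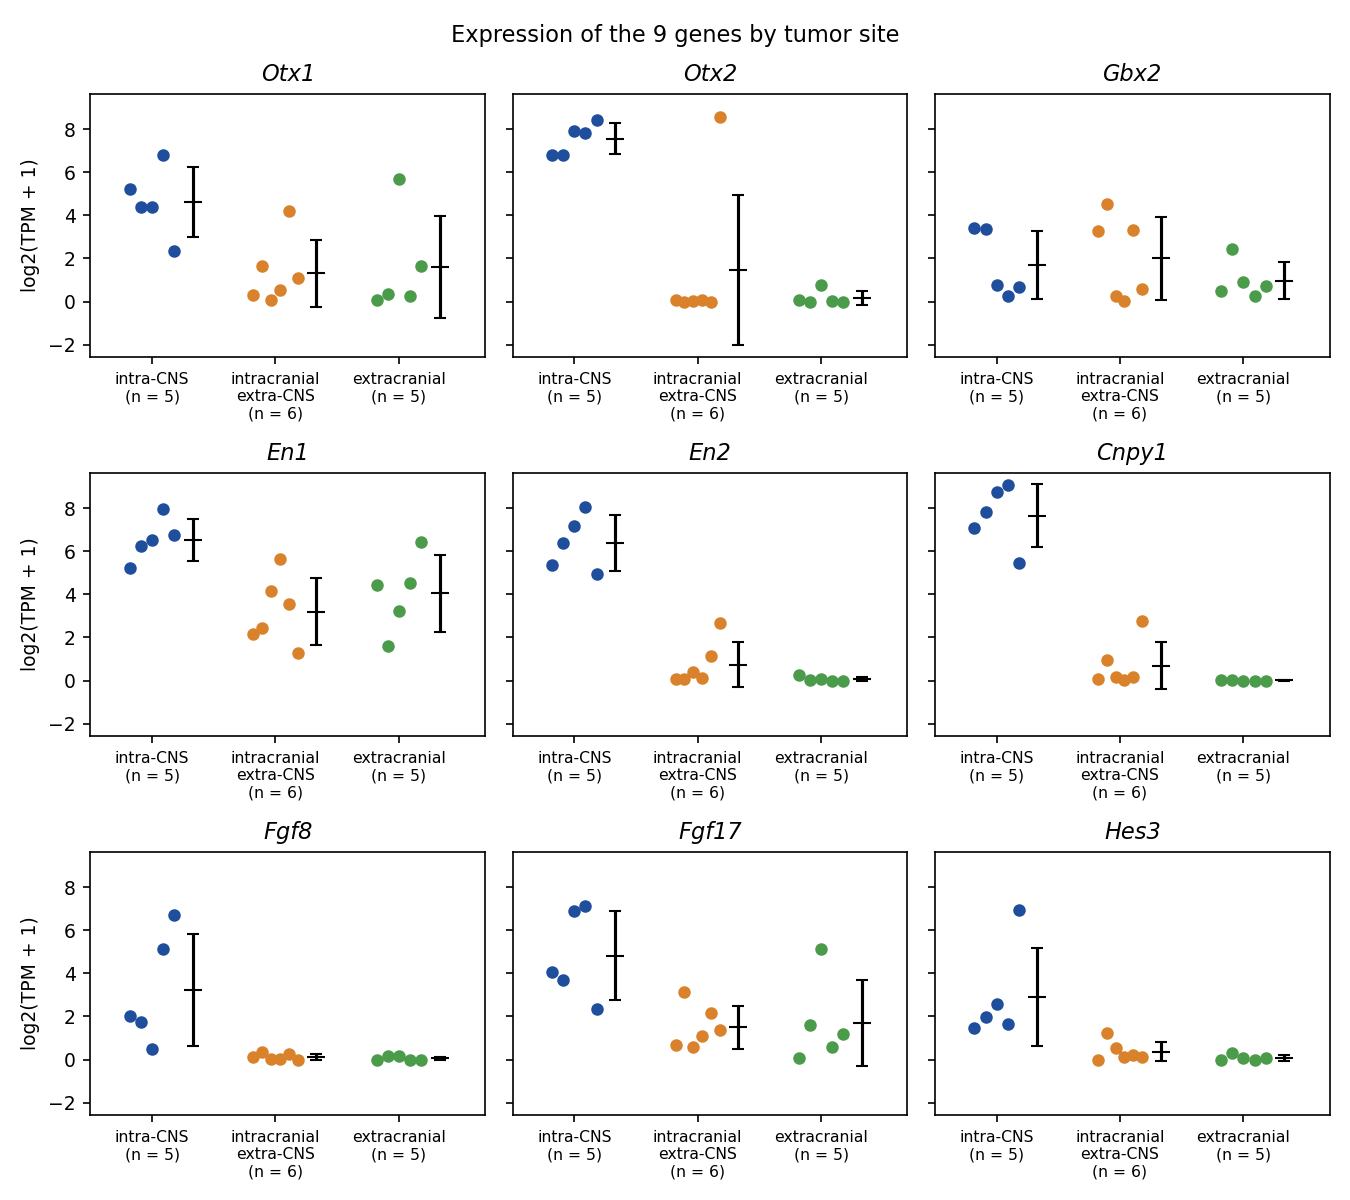
Level of each gene as log2(TPM + 1) in the intra-CNS (n = 5), intracranial extra-CNS (n = 6) and extracranial tumors (n = 5), with one point for each tumor and a bar for the mean and SD of the group. En2, Cnpy1, Fgf8 and Hes3 lie above all extra-CNS tumors in every intra-CNS tumor on this scale, whereas Gbx2 and En1 overlap between sites. The share of all genes that do so was counted in normalized counts alone (5.43%), where Hes3 overlaps.

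By mean log2(TPM + 1), the order of sites was intra-CNS, intracranial extra-CNS, extracranial for Otx2, En2, Cnpy1 and Hes3, and the latter pair of sites overlapped for each of these genes but Cnpy1, where 3 counts in 29225D and 1 count in 43825B lay next to each other. For Otx2 the order of the latter pair rests on R26P115, as the fold change of -2.55 without it shows. Fgf8 was highest in the intra-CNS tumors, and with 0 to 3 counts in each of the others those sites were not ordered. For Otx1, En1 and Fgf17 the extracranial tumors came second. Gbx2 was highest in the intracranial extra-CNS tumors, at 6.77 ± 8.72 TPM (SD, n = 6), against 4.10 ± 4.95 TPM (SD, n = 5) in the intra-CNS and 1.30 ± 1.74 TPM (SD, n = 5) in the extracranial tumors, all overlapping.

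Of 14 further genes of the boundary network, 3 rose and 1 fell in the intra-CNS tumors, beside 12.9% of all genes called as higher and 13.1% as lower. Their median log2 fold change was 1.02, beside -0.15 over all genes tested. Pax5, a paired-box factor of the boundary, rose with a log2 fold change of 6.67 ± 0.74 (edgeR, adjusted p = 1.47e-05). It was at 1.59 TPM in 29048, 13.2 in 38594A, 1.40 in 29050A, 5.61 in R26P98 and 3.76 in R26P87, above all extra-CNS tumors (0 to 0.0817 TPM). Sp8, a zinc finger gene that acts on Fgf8 at the boundary, rose by 5.98 ± 1.06 and was at 2.71 and 5.18 TPM in 29048 and 38594A but 0.0741 to 0.435 TPM in the other intra-CNS tumors. The tumors with Sp8 above 1 TPM were thus the intra-CNS tumors with Gbx2. Wnt3a rose by 3.55 ± 1.13 on at most 1.49 TPM. Lmx1b, which acts upstream of Fgf8, fell by 2.59 on the log2 scale with 0.128 to 0.727 TPM in the intra-CNS tumors. Wnt1, the Wnt ligand of the midbrain side, stayed at or under 0.0936 TPM in every tumor.

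Other network genes reached 1 TPM in the intra-CNS tumors without a call. Pax2 was at 1.13 TPM in R26P98 and 3.95 TPM in R26P87, and at 0.0842 to 0.293 TPM in the other intra-CNS tumors. It was also at 1.99 TPM in 29941C and 1.73 TPM in R26P170, extra-CNS tumors with 1 and 3 counts of Fgf8. Pax3 was at 343 TPM in R26P87 and 0.585 to 19.4 TPM in the other intra-CNS tumors, and at 92.8 TPM in R26P170. Fgf15 was at 132 TPM in 38594A and 0.857 to 14.0 TPM in the others. Lmx1a was at 3.15 to 10.6 TPM in all 5, and at 55.0 TPM in R26P115. Fgf18 was at 3.49 to 25.2 TPM, Irx1 at 0.268 to 10.8 TPM and Irx2 at 0 to 16.2 TPM, each overlapping the extra-CNS tumors.

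Among 12 FGF receptors and genes that FGF signaling induces, 1 rose and 1 fell, again beside 12.9% and 13.1% of all genes, and the median log2 fold change was 0.20. The ETS factor gene Etv1 was at 14.8 to 46.2 TPM in the intra-CNS and 0.353 to 6.23 TPM in the extra-CNS tumors, a log2 fold change of 2.60 ± 0.50 (edgeR, adjusted p = 0.000959). Il17rd, a membrane inhibitor of FGF signaling, fell by 2.08 (edgeR, adjusted p = 0.0216). The 12 genes did not share 1 order among the intra-CNS tumors. R26P87, with the most Fgf8, was highest for Fgfr2, Spry2, Spry4 and Il17rd, and 29050A, with the least Fgf8, was highest for Etv1, Etv4 and Etv5. R26P98 was highest for Fgfr1, Spry1 and Dusp6, 29048 for Fgfr3 and 38594A for Flrt3. Dusp6, Etv4, Etv5, Spry1 and Spry2 were not called.

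Genes of the neighboring territories were read for comparison. Of 11 forebrain genes, 3 were higher, Gsx1 (11.43 ± 1.22), Sox6 (4.76 ± 0.71) and Gsx2 (4.32 ± 1.35), and 0 were lower, beside the same shares of all genes. Gsx1 is a ventral forebrain gene that is also expressed in the midbrain and hindbrain, and its highest value, 858 TPM, was in R26P87, against 11.3 to 69.6 TPM in the other intra-CNS tumors. Of 5 hindbrain genes, 0 were higher and 2 were lower, among them Egr2, also a gene of Schwann cells. Of 4 cerebellar progenitor genes, Ptf1a (6.01 ± 1.04), Atoh1 (5.86 ± 0.78) and Barhl1 (2.49 ± 0.85) were higher, at no more than 7.79 TPM in any tumor. The other, Zic1, was not called (2.79 ± 1.12, edgeR, adjusted p = 0.0650). It was at 154 to 439 TPM in the intra-CNS tumors and at most 105 TPM in the extra-CNS tumors. Among markers of other cells, called genes in the intra-CNS direction were 5 of 6 cerebellar neuron genes, 5 of 6 oligodendrocyte genes, 2 of 5 mature neuron genes, 1 of 4 astrocyte genes, 1 of 5 dopaminergic genes, 1 of 12 pituitary genes, 0 of 7 eye and pineal genes and 0 of 6 choroid plexus genes. In the other direction, Nr4a2 of the dopaminergic list was called. The part of these cell types in the values of the members was not tested, and the omission of 3 tumors given above does not measure it.

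The genes most like a member were sought by the mean absolute difference of centered log2(TPM + 1) over the 16 tumors, among 15811 genes. For En2 these were Stxbp6 (0.53), the Notch target Hes5 (0.54) and Gm30731 (0.57), and Cnpy1 ranked 12 at 0.63. Hes5 was at 46.5 to 159 TPM in the intra-CNS tumors and at most 0.116 TPM in the others. For Fgf8 they were Tbx19 (0.46), Hes3 (0.54) and the caudal homeobox gene Cdx2 (0.58), all highest in R26P87, at 33.4, 121 and 49.3 TPM. For Otx2 they were Ildr2 (0.78), Slc2a12 (0.81) and Zcchc18 (0.95), and Cnpy1 and En2 ranked 8 and 16. Slc2a12 shared the high value in R26P115, at 272 TPM. For Gbx2 the nearest 3 included Apol8 (0.71) and Cbarp (0.75), and 0 of the other members ranked among them. Among genes with a mean of at least 5 TPM, in place of 1 TPM, 1 of the 3 genes nearest Fgf8 and 2 of the 3 nearest Gbx2 were again among the nearest 3, and all 3 for En2 and Otx2.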

How the data were processed

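The 9 genes, the gene lists and the tests were chosen with earlier results of these data known. Gene counts (whole numbers, not normalized) and TPM values were deposited by the authors, who sequenced stranded polyA libraries, mapped 100 bp read pairs to mm10 and counted genes with STAR 2.5.3a. The submitters' processing notes also name Trim Galore, FastQC and Picard. The annotation and gene lengths behind the TPM values are not given in the sources used here, so that levels of different genes depend on lengths that were not checked. Tumors were grouped by the labelled site, and 0 value columns were left unmapped.

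All genes with any count were tested with edgeR 4.0.16 in R 4.3.3 (TMM normalization, quasi-likelihood test, Benjamini-Hochberg adjustment over all genes tested, adjusted p under 0.05 and absolute log2 fold change above 1). Standard errors were obtained from the fold change and the F statistic. The site comparison was fitted on the 11 extra-CNS tumors alone. The code was tested on simulated data. Each mouse gave 1 tumor, so p-values measure the spread between mice. Levels were TPM or log2(TPM + 1), and 1 TPM was taken as the level of expression. Reads carry no molecular identifiers, so intervals and floors cover counting error only.

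Named were all 9 genes, called genes of the other lists (up to 6 a list by size of change), boundary network genes reaching 1 TPM in an intra-CNS tumor, and the 3 genes most like En2, Fgf8, Otx2 and Gbx2 among genes with a mean of at least 1 TPM. Wnt1, the uncalled genes of the FGF list, the Cnpy paralogs, Otx2os1 and the markers of single tumors were named after their values were seen. A few genes these rules select are not reported here. Alternatives were DESeq2 1.42.0, limma 3.58.1 on log2(TPM + 1), DESeq2 size factors, filterByExpr, calls without the fold limit, a covariate for numbered against R26P mouse names, subsets by day or site and the omission of each tumor. Positions came from GENCODE M21 and promoter windows from RefSeq. Python 3.11.15, pandas 2.3.3, scipy 1.17.1 and matplotlib 3.10.9 were used.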

Additional observations from a re-analysis of the deposited data

Results flagged for a closer look

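In each site, the highest and lowest log2(TPM + 1) of each of the 9 genes was compared with the nearest other tumor, over 27 sets of values. In 6 sets a tumor stood apart by Dixon's test, which singles out about 1 set in 20 by chance. Otx2 in R26P115, at 8.60, stood apart from the other intracranial extra-CNS tumors, the next of which was at 0.06, and so did Cnpy1 in the same tumor, at 2.78 against 0.97. This is the tumor with the choroid plexus markers. Otx1 in the nose tumor 43990A, at 5.69, stood apart from the other extracranial tumors (next 1.64), and so did its Otx2, at 0.77 on 26 counts. Hes3 in R26P87, at 6.93, stood apart from the other intra-CNS tumors (next 2.59). Hes3 in the jaw tumor 43987A was at 0.32 on 10 counts.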

How the results depend on the processing

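En2 and Cnpy1 were called between intra-CNS and extra-CNS tumors under every alternative run. With each tumor left out in turn, 4 to 7 of 9 members were called, beside 2406 to 3565 genes as higher over all genes tested (at most 16.4%). With limma on log2(TPM + 1) 8 were called, all but Gbx2, and among E6 tumors 3, where 3533 genes in all were called against 5689. Other settings gave 4 to 6, beside 2365 to 3526 genes as higher (at most 16.1%). limma called 4082 genes as higher and 1324 as lower, against 2829 and 2860 with edgeR, and its median log2 fold change over all genes was 0.20 against -0.15. DESeq2 gave Hes3 no adjusted p, and Fgf8 was removed by edgeR's filter on low counts. Gbx2, not called in any setting, changed sign to 0.16 with limma and to 0.20 without 43992A, and reached -1.26 without 29048. Between sites outside the brain parenchyma, 0 members were called with each tumor left out in turn and 2 with DESeq2, which called 490 genes in all against 1. There, with single tumors left out, Otx1 ranged from -3.59 to 2.47 and Fgf17 from -2.31 to 1.41 (both positive without 43990A), En1 from -1.89 to 0.0066 (without R26P123) and Otx2 from -2.55 (without R26P115) to 12.15. The causes were not tested. At 0.5 or 2 TPM in place of 1 TPM, the median number of members per intra-CNS tumor stayed within 1.5 times. Among mice with numbered names alone, chosen after seeing the data, Fgf17 and Hes3 lost their calls. No paired analysis was possible because the 16 tumors come from 16 different mice and the labels give no replicate number that groups share. Depth limits the folds of Fgf8, Otx2, Cnpy1, En2 and Hes3, which had 3 counts or fewer in 11, 9, 7, 6 and 6 of the 11 extra-CNS tumors.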
